A study of Mus musculus with 32 samples.

Results

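The 36 genes described here mark blood and lymphatic endothelium, the cell layer that lines vessels, and were taken by name from a list of endothelial genes. All 36 were found among the 22329 gene symbols of the deposited table. They were followed in MC38, a mouse colon adenocarcinoma line, in its parental form and in a form called MC38-resistant, which is resistant to antibodies against PD-1, a checkpoint receptor of T cells. The 25 tumors grew under the skin of C57BL6/J mice that received no treatment, 13 from parental and 12 from resistant cells. Cultured cells gave 2 parental and 5 resistant libraries, also untreated. The labels give neither the age of the mice nor whether the resistant line is a clone, and nothing in them shows that cultured libraries stem from independent cultures. P-values for cultures therefore reflect no more than the scatter among these libraries, part of which may be technical. Poly(A) RNA was sequenced, and values are TPM, a gene's length-scaled share of the transcripts of its library.

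Endothelial cells of growing tumors respond to VEGF ligands through Flt1, Kdr and Flt4, and to angiopoietins through the receptor Tek and its partner Tie1. They hold together through the cadherin Cdh5, the immunoglobulin-like adhesion protein Pecam1 and the tight junction protein Cldn5. Their identity depends on the ETS factors Erg and Fli1 and on Sox17 and Sox18, while Prox1 sets lymphatic fate. Several of these genes are also used elsewhere, Fli1 and Pecam1 in leukocytes and platelets and Cd34 in blood progenitors and mesenchymal cells.

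The upstream sequences of 3 of these genes are shown because Cd34 and Eng carried the differences between the lines, while Tie1 stayed near 0 in every cultured library. Each is the 250 bases before a transcript start, 5′ to 3′ on the strand of the gene, from RefSeq on GRCm38.p6, with a 6-base ETS-like element in capitals. The element was searched as AGGAAG and, for the other strand, as CTTCCT. Cd34 lies at chr1:194938571-194938820 (+), Eng at chr2:32646345-32646594 (+) and Tie1 at chr4:118489850-118490099 (-).
Cd34: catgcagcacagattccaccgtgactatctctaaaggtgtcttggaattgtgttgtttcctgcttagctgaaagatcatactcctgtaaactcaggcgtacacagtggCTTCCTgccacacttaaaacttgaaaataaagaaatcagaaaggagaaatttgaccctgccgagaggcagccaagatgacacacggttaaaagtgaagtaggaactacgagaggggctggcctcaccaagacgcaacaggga
Eng: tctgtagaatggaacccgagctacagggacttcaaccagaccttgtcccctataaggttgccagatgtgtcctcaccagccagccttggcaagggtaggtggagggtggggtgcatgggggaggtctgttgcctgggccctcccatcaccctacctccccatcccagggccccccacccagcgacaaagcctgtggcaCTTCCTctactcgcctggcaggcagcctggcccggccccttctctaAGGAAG
Tie1: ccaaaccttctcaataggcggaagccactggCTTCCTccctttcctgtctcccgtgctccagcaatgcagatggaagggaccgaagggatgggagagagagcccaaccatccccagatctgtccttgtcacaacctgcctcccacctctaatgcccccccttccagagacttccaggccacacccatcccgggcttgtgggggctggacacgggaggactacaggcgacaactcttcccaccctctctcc
The Eng sequence held 2 matches, and Cd34 and Tie1 held 1 each. The sequence of Kdr, which also stayed near 0 in every cultured library, was read in the same way. It held 0 matches and is not printed. The promoter table had entries for 19 of the 36 genes, and 13 of their 25 promoters (52%) held the element, against 29.5% of all 32851 promoters of that length. A match is a stretch of letters and was not tested as a binding site.

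The sum of 8 defining endothelial markers (Pecam1, Cdh5, Kdr, Tie1, Tek, Erg, Emcn and Robo4) ran from 72.8 to 140.6 TPM in parental tumors and from 55.4 to 123 TPM in resistant tumors. In culture it ran from 1.01 to 4.17 TPM in the parental line, where Kdr, Tek and Robo4 were at 0 in both libraries, and from 0.28 to 8.15 TPM in the resistant line. Some libraries stood apart. Among 126 genes whose levels did not overlap between the tumors of the lines, resistant culture 1 was nearer the parental tumor mean for 71 (56.3%), against 24.6% to 31.7% in the other resistant cultures and 75.4% and 72.2% in the parental cultures. Its values are therefore given separately, and results that it moved are also given without it. Of the parental tumors, 4 (numbers 2, 3, 7 and 8, numbered in the order of deposition) had a GC index above 0.5, while no resistant tumor did. This index is the level of GC-rich genes minus that of GC-poor genes in a library, on the log2 scale, and averaged 0.150 ± 0.379 (SD, n = 13) in parental and -0.176 ± 0.260 (SD, n = 12) in resistant tumors. Tumor and cultured libraries carry different name series in the labels, so setting and library series cannot be told apart.

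**Figure D1:**
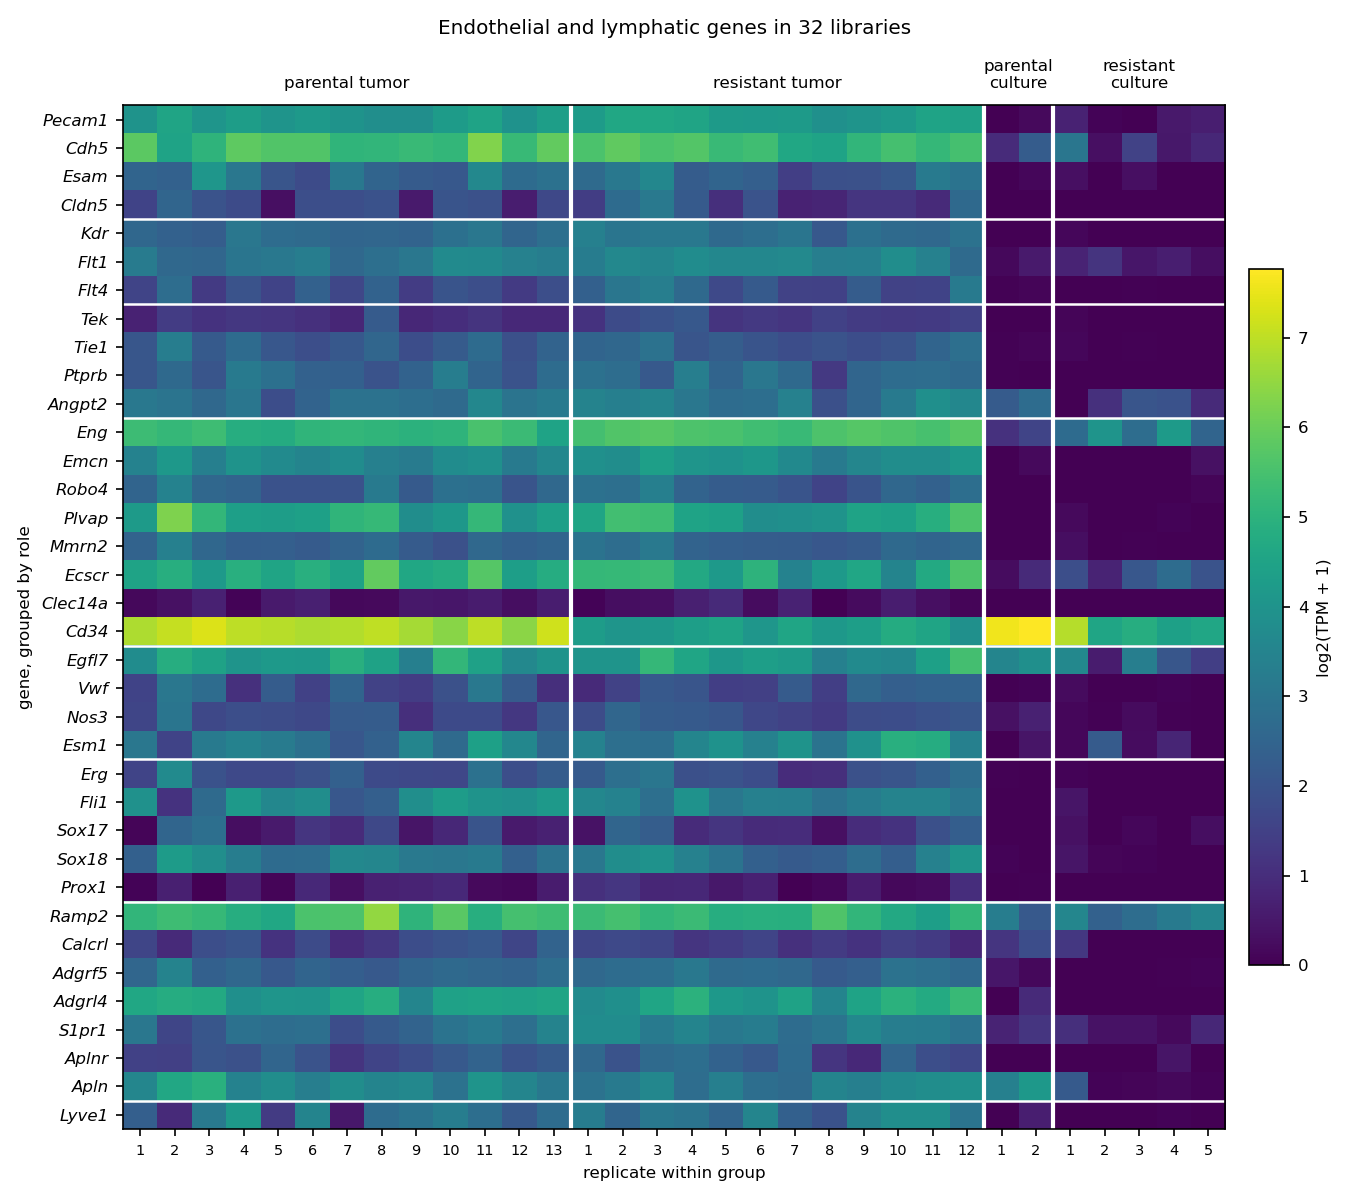
Level of each of the 36 genes (rows, grouped by role) in each of the 32 libraries (columns, by group and replicate) as log2(TPM + 1), from dark (0) to yellow. Most rows are brighter in tumors than in cultures, with genes of low level dark in both. Cd34 is brightest in parental tumors, parental cultures and resistant culture 1.

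In tumors, 12 of the 36 genes averaged at least 10 TPM in each line, and Prox1 and Clec14a averaged under 1 TPM in both. In parental tumors Cd34, Cdh5, Ramp2 and Eng had the highest mean levels, and in resistant tumors Eng, Cdh5, Ramp2 and Ecscr. Averaged over the 36 genes as log2(TPM + 1), the level was 2.96 ± 0.19 (SD, n = 13; range 2.72 to 3.36) in parental tumors and 2.99 ± 0.26 (SD, n = 12; range 2.44 to 3.37) in resistant tumors. Tumor to tumor, this average varied more within each line than it differed between them, by 0.025. Over the 29 genes that no cultured line expressed, by the rule given with the cultures, it was 2.65 ± 0.20 and 2.78 ± 0.29 (SD), a difference of 0.127, also within the spread. In bulk tissue, fewer endothelial cells and less RNA per cell cannot be told apart.

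The first comparison asked how the vessel genes of resistant tumors differ from those of parental tumors before any therapy. Of the 33 genes that passed the filter of 1 TPM, Eng and S1pr1 rose, Cd34 fell, and 30 did not pass the test (limma, adjusted p under 0.05 over all 12095 genes tested). Differences are on the log2(TPM + 1) scale, which understates the change of genes with low levels. Sox17, Clec14a and Prox1 were too low to be tested. Among all genes tested, 16.3% were higher and 13.9% lower in resistant tumors, so 2 and 1 of 33 vessel genes is no larger a share than that background. The median log2 difference was 0.05 over the 33 genes and 0.04 over all genes tested, and 18 of the 33 lay above 0. For 28 of the 30 genes that did not pass, the 95% interval of the difference stayed within 1 log2 unit in both directions. On this scale 1 unit is more than 2-fold in TPM for genes of low level.

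**Figure D2:**
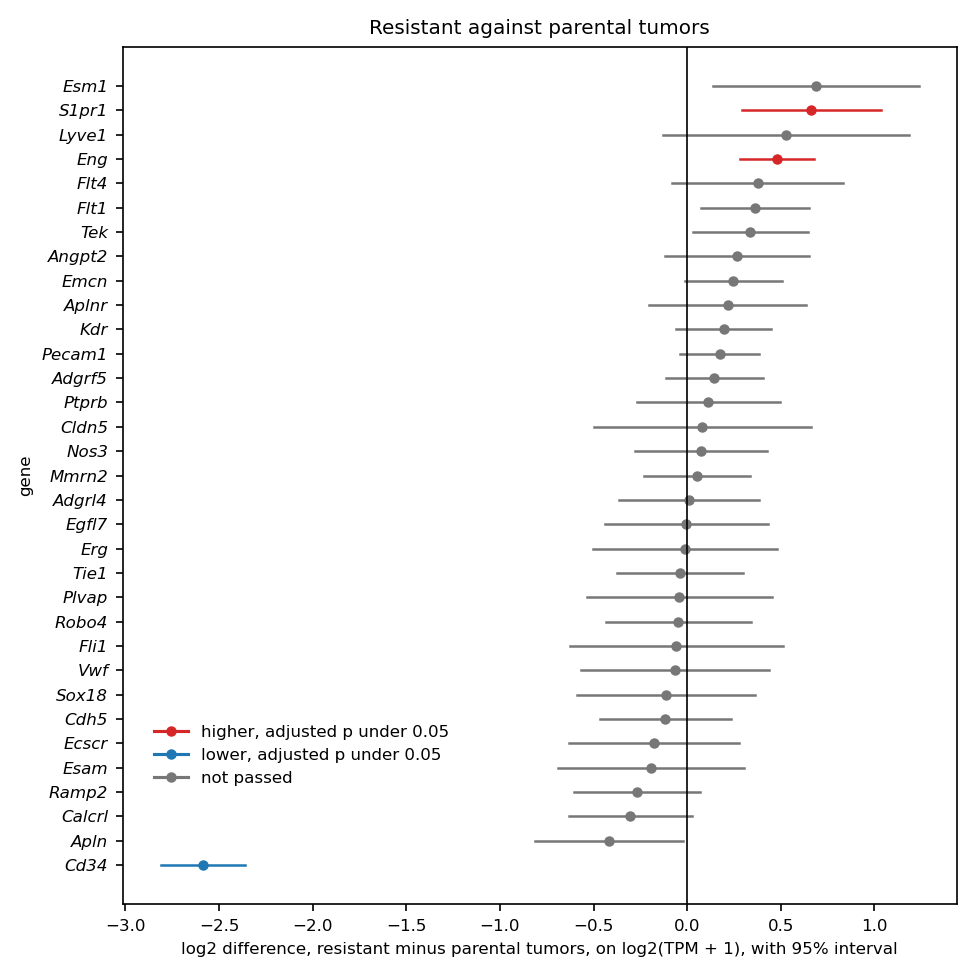
Difference between resistant and parental tumors for the 33 tested genes on the log2(TPM + 1) scale, as points with 95% intervals from limma. Cd34 stands alone on the left at -2.59, Eng and S1pr1 (red) lie above 0, and the 30 genes in grey did not pass an adjusted p of 0.05.

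Cd34, a sialomucin on endothelial cells and blood progenitors, was the only gene of the set whose tumor groups did not overlap. In parental tumors it ran from 82.7 TPM through a median of 121 TPM to 163 TPM. In resistant tumors the lowest, median and highest values were 14, 18.9 and 26.4 TPM. Every resistant tumor therefore lay below every parental tumor, a pattern that 0.546% of all tested genes shared, while 0.496% had all resistant tumors above all parental ones. The means were 119.6 ± 22.6 and 19.0 ± 3.64 TPM (SD, n = 13 and 12), and the log2 difference was -2.59 ± 0.11 (SE; limma, adjusted p = 7.83e-16).

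Eng, endoglin, the co-receptor for TGF-beta family ligands, moved the other way. It ran from 21.8 TPM through 33.0 TPM to 45.4 TPM in parental tumors and from 37.0 TPM through 47.1 TPM to 52.98 TPM in resistant tumors. The ranges overlapped between 37.0 and 45.4 TPM. Eng rose by 0.48 ± 0.10 on the log2 scale (SE; limma, adjusted p = 0.000454), from 33.5 ± 6.26 to 46.7 ± 4.98 TPM (SD).

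S1pr1, the sphingosine-1-phosphate receptor that steadies endothelial junctions and is also used by lymphocytes, had its lowest, median and highest parental tumors at 2.05, 6.09 and 10 TPM, against 5.73, 8.59 and 12.8 TPM in resistant tumors. It rose by 0.66 ± 0.18 on the log2 scale (SE; limma, adjusted p = 0.00626). The 4 parental tumors of high GC index were its 4 lowest, at 2.05 to 3.62 TPM against 4.52 to 10 TPM in the other 9. Without those 4 the difference was 0.35 (adjusted p = 0.0623), and in a fit with the GC index as covariate it was 0.42 (0.0634), so the call did not hold in either fit.

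**Figure D3:**
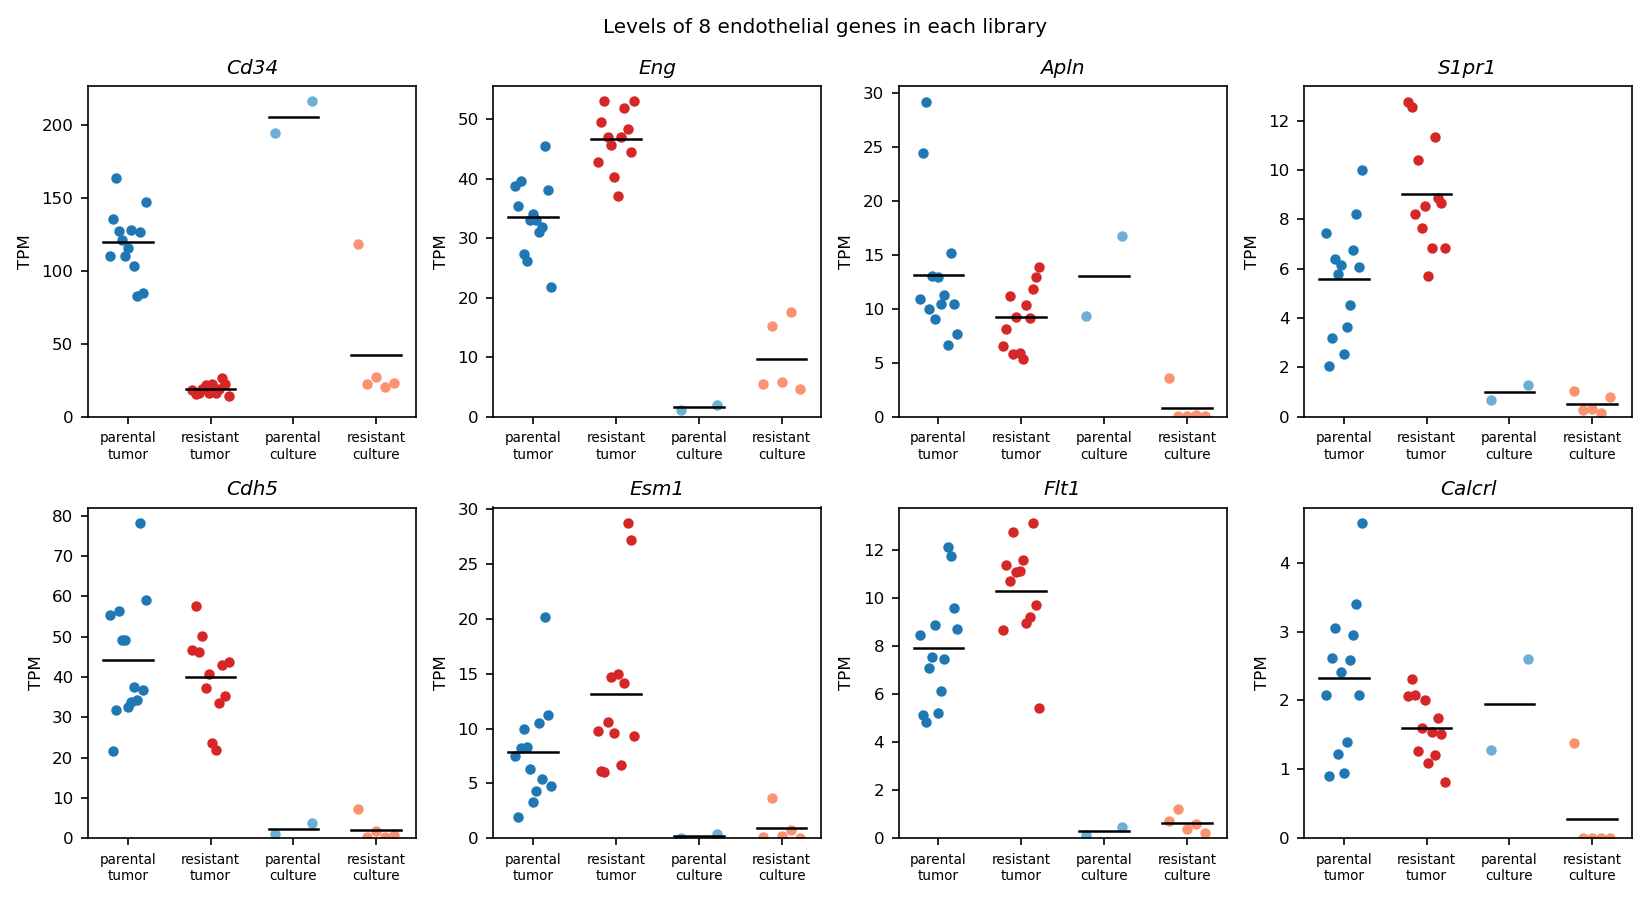
TPM of 8 genes in each library (points) of the 4 groups, with the group mean as a black line; each axis starts at 0. Cd34 separates the tumors of the lines, Eng is higher in resistant libraries in both settings, and resistant culture 1 is the high point of that group for Cd34, Apln, Cdh5 and Calcrl.

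The junction and adhesion genes did not pass the test between tumor lines. Cdh5, the cadherin of endothelial junctions, ran from 21.6 through 37.5 to 78.1 TPM in parental and from 21.9 through 41.9 to 57.5 TPM in resistant tumors, a log2 difference of -0.12 (95% interval -0.47 to 0.23). Pecam1 was the steadiest of this group, at 16.9 ± 3 and 19.2 ± 3.24 TPM (SD), a difference of 0.17 (-0.04 to 0.39). Cldn5, the tight junction claudin, was low and scattered, from 0.25 to 4.76 TPM in parental and from 0.679 to 7.86 TPM in resistant tumors. Esam, an endothelial adhesion molecule, reached 15.8 TPM in parental tumor 3 and lay between 1.72 and 11.1 TPM in resistant tumors.

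All 3 VEGF receptors had differences above 0 that did not pass. Flt1, a high-affinity VEGF receptor often seen as a decoy, ran from 4.86 through 7.55 to 12.1 TPM in parental and from 5.44 through 10.9 to 13.1 TPM in resistant tumors. Its difference was 0.36 (95% interval 0.07 to 0.65; limma, adjusted p = 0.0533). Flt1 passed on leaving out parental tumor 10, 11 or 12 or resistant tumor 12, with adjusted p from 0.0143 to 0.0429. The high-GC parental tumors were its low end, at 4.86 to 6.13 TPM against 7.09 to 12.1 TPM in the other 9, and without them the difference was 0.16 (adjusted p = 0.381). Kdr, the main signaling receptor for VEGF in blood vessels, ran from 3.86 through 5.08 to 7.48 TPM and from 3.44 through 6.40 to 9.49 TPM, and Flt4, the VEGF-C receptor of lymphatic and sprouting endothelium, from 1.48 through 2.65 to 5.84 TPM and from 1.81 through 3.68 to 8.89 TPM. Their differences were 0.19 (-0.06 to 0.45) and 0.38 (-0.08 to 0.83).

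The angiopoietin-Tie genes likewise overlapped between the lines. Tek, the angiopoietin receptor, was low, with a parental median of 1.12 TPM, a resistant median of 1.51 TPM and a difference of 0.34 (0.03 to 0.65; limma, adjusted p = 0.0911). Parental tumor 8, at 3.74 TPM, was the highest of all 25 tumors for Tek, and without it the difference was 0.43 (adjusted p = 0.013). Tie1 had medians of 3.64 and 3.47 TPM, and Ptprb, the phosphatase that acts on Tek and Cdh5, 4.40 and 5.47 TPM. Angpt2, the angiopoietin that endothelial cells release and that can antagonise Tek, ran from 2.60 through 6.57 to 11.1 TPM in parental and from 2.71 through 8.64 to 13.7 TPM in resistant tumors, a difference of 0.27 (-0.12 to 0.65).

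Of the surface glycoproteins and receptors besides Cd34 and Eng, none passed. Plvap, which forms the diaphragms of fenestrae and caveolae, spread most: parental tumor 2 held 76.6 TPM, the median was 19.7 TPM and the lowest was 13.1 TPM, while resistant tumors ran from 13.1 through 21.8 to 47.8 TPM. Its difference was -0.04 (-0.54 to 0.45), but with the GC index as covariate Plvap was higher in resistant tumors by 0.55 (limma, adjusted p = 0.000631). Emcn, a sialomucin of veins and capillaries, had medians of 11.1 and 13.4 TPM and a difference of 0.25 (-0.01 to 0.50). Ecscr, a regulator of endothelial migration, had medians of 26.6 and 24.9 TPM. Robo4 and Mmrn2, a guidance receptor and a vascular matrix glycoprotein, had medians between 4.42 and 4.65 TPM in both lines, and Clec14a, an endothelial lectin, never reached 1 TPM in any tumor, with 0.901 TPM the highest.

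No transcription factor passed between the lines over all tumors, but Fli1 and Sox18 split the parental group. Fli1 ran from 1.199 through 13.3 to 18.6 TPM in parental and from 6.11 through 9.36 to 14.4 TPM in resistant tumors, a difference of -0.06 (-0.63 to 0.51). Its 4 lowest parental values, 1.199 to 5.40 TPM, belonged to the 4 high-GC tumors, and the other 9 held 10.97 to 18.6 TPM. Without the 4, Fli1 was lower in resistant tumors by -0.64 (limma, adjusted p = 0.000544), so its reading between the lines turned on that split. Sox18, a partner of Sox17 in vessel development, went the opposite way within the parental group, with 10.9 to 18.1 TPM in the high-GC tumors against 4.19 to 8.86 TPM in the rest. Erg had medians of 2.63 and 3.04 TPM, Sox17 of 0.826 and 1.09 TPM, and Prox1 of 0.521 and 0.568 TPM, near the floor of what this table resolves.

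Of the G protein-coupled receptors and their partners, only S1pr1 passed. Ramp2 and Calcrl, which together form the adrenomedullin receptor, had differences of -0.27 (-0.60 to 0.07) and -0.30 (-0.63 to 0.02). Ramp2 was abundant, with medians of 39.8 and 33.9 TPM, and Calcrl scarce, with 2.41 and 1.57 TPM. Without the high-GC parental tumors, Calcrl was lower in resistant tumors by -0.49 (adjusted p = 0.0186). The adhesion receptors Adgrl4 and Adgrf5 had medians of 21.6 TPM in each line for the former, and of 4.67 and 5.47 TPM for the latter. Aplnr, the apelin receptor of sprouting vessels, had medians of 2.92 and 3.96 TPM. Its ligand Apln ran from 6.64 through 10.9 to 29.2 TPM in parental tumors, with tumors 2 and 3 highest at 24.4 and 29.2 TPM, and from 5.39 through 9.20 to 13.9 TPM in resistant tumors, a difference of -0.42 (-0.81 to -0.02; limma, adjusted p = 0.102). That of Apln was -0.07 (0.766) with the GC index as covariate, while with Ptprc as covariate Apln was lower at -0.72 (0.000205).

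Among secreted products and enzymes, Esm1, a proteoglycan of tip cells that VEGF induces, had the largest difference above 0 of the set. It ran from 1.95 through 7.48 to 20.2 TPM in parental tumors and from 6.01 through 10.2 to 28.7 TPM in resistant tumors, a difference of 0.69 (0.14 to 1.24; limma, adjusted p = 0.0517). Resistant tumors 10 and 11 were the highest of all 25, at 28.7 and 27.2 TPM. Esm1 passed when any of 7 tumors (parental 4, 9, 11 or 12, resistant 2, 3 or 8) was left out, with adjusted p from 0.0171 to 0.047. Its 4 high-GC parental tumors averaged 4.44 TPM and the other 9 averaged 9.34 TPM, and without the 4 its difference was 0.40 (adjusted p = 0.269). Egfl7, a matrix protein of vessel tubes that also hosts a microRNA, had medians of 17.0 and 17.1 TPM, Vwf, the platelet-binding factor, 2.76 and 3.32 TPM, and Nos3, the endothelial nitric oxide synthase, 2.37 and 2.75 TPM. Lyve1, the hyaluronan receptor of lymphatic vessels that some macrophages share, ran from 0.409 through 5.75 to 16.9 TPM and from 2.87 through 7.27 to 13.3 TPM, a difference of 0.53 (-0.13 to 1.18).

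The split by GC index touched 5 of the 36 genes without overlap within the parental group. Cdh5, Flt1, Fli1 and S1pr1 were lower in each of the 4 high-GC tumors than in any of the other 9, Sox18 was higher, and 31 genes overlapped. Over the 12095 genes tested in tumors, 10.4% split below and 7.45% above in the same way, so 4 and 1 of 36 lie close to or below that background. For Cdh5 the high-GC tumors held 21.6 to 33.7 TPM and the others 34.3 to 78.1 TPM. The part of GC content in these levels was not tested. Cd34 and Eng kept their calls without the 4 tumors, with differences of -2.50 (limma, adjusted p = 2.81e-13) and 0.53 (0.000728).

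Cultured cells hold no vessels, so levels there show which of these genes the MC38 cells themselves express. With expression set at 1 TPM in every library of a line, 7 of the 36 genes were expressed by parental cells (Eng, Egfl7, Ramp2, Calcrl, Cd34, Apln and Angpt2) and 3 of these also by resistant cells (Eng, Ramp2 and Cd34). The other 29 met the rule in neither line, and Cldn5 and Clec14a were at 0 in all 7 cultures. With a limit of 0.5 TPM the counts were 9 and 5. The rule asks for 2 libraries in the parental line and 5 in the resistant line, so the counts of the lines are not alike. In resistant culture, Egfl7 and Ecscr reached 1 TPM in 4 of 5 libraries and Angpt2 in 3. Cd34 was the extreme case, with a mean in culture of 172% of the tumor mean in the parental line and 223% in the resistant line, where culture 1 raised it. Without culture 1 the resistant share was 123%. Apln in parental culture was at 99.0% of its tumor mean, Calcrl at 83.8%, Angpt2 at 72.3% and Egfl7 at 62.8%. In resistant cells the same 4 genes stood at 8.44%, 17.2%, 19.4% and 26.2% of the tumor mean, and without resistant culture 1 at 0.825%, 0%, 24.3% and 18.4%.

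Below the rule, some defining genes were still read in single cultures. Cdh5 was at 0.957 and 3.81 TPM in the parental cultures and at 7.18, 0.235, 1.87, 0.419 and 0.825 TPM in resistant cultures 1 to 5. Ecscr was at 0.195 and 0.893 TPM in parental and at 2.62, 0.713, 3.35, 5.73 and 2.99 TPM in resistant cultures. In contrast, Kdr was at 0.0949 TPM in resistant culture 1 and at 0 in the other 6 cultures, and Pecam1, Tie1, Tek, Erg, Emcn, Robo4, Plvap and Ptprb stayed at or below 0.659 TPM in all 7.

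Between the cultured lines, 10 of the 36 genes could be tested, and Eng was higher while Cd34 and Apln were lower in resistant cells. Over all 11201 genes tested, 6.15% were higher and 8.04% lower. Cd34 was at 194 and 216 TPM in parental cultures and at 118, 22.7, 27.6, 20.2 and 23.3 TPM in resistant cultures, a log2 difference of -2.63 ± 0.58 (SE; limma, adjusted p = 0.0182). The resistant value of 118 TPM belongs to culture 1, and without it the difference was -3.08 (adjusted p = 2.12e-05). Apln was at 9.32 and 16.7 TPM in parental cultures and at 3.58, 0.045, 0.0844, 0.127 and 0.0474 TPM in resistant cultures, again with culture 1 highest. Its difference was -3.23 ± 0.58 (adjusted p = 0.00723), and -3.65 (0.000107) without culture 1. Eng was at 1.14 and 2.01 TPM in parental and at 5.56, 15.2, 5.82, 17.7 and 4.71 TPM in resistant cultures, with no overlap. Its difference was 1.90 ± 0.49 (adjusted p = 0.0322), and 2.04 (0.0254) without culture 1.

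These calls rest on few libraries. With parental culture 1 or 2 left out, so that the remaining library was assumed to vary like the resistant cultures, none of the 3 genes passed. Adjusted p was then 0.151 and 0.164 for Cd34 at differences of -2.70 and -2.55, 0.0628 and 0.109 for Apln at -3.62 and -2.85, and 0.239 and 0.145 for Eng at 1.66 and 2.15. Eng also missed the threshold without resistant culture 2 (1.71, adjusted p = 0.0544) or 4 (1.66, 0.0505). Calcrl was at 1.29 and 2.60 TPM in parental cultures, 1.38 TPM in resistant culture 1 and 0 in the other 4. It did not pass with all libraries (-1.27, adjusted p = 0.0762) and was lower without culture 1 (-1.52, 0.00746). Ecscr was higher only without resistant culture 2 (1.59, 0.0258). Angpt2 was at 3.71 and 5.72 TPM in parental and at 0, 1.13, 3.12, 2.88 and 0.904 TPM in resistant cultures, which did not overlap, but the difference of -1.29 did not pass (0.133).

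Set against culture of the same line, most of these genes were higher in tumors. Tumors alone could bring a gene past the filter, and cultures hold no vessels. The direction was therefore largely set by the choice of genes, and the counts describe it without testing it. In the parental line, 28 of 34 tested genes were higher in tumors, Cd34 was lower, and 5 did not pass (Egfl7, Sox17, Calcrl, Apln and Angpt2). Among all 14348 genes tested, 16.1% were higher and 5.99% lower. In the resistant line, 33 of 34 were higher and Cd34 was lower, against 35.3% and 15% of all 12312 genes tested. Without resistant culture 1 the resistant counts were 33 higher and 0 lower, against 34.2% and 14.5% of all genes tested. The median difference over the set was 2.36 and 2.45 (2.47 without resistant culture 1), against 0.21 and 0.18 for all genes tested. Plvap, Pecam1, Cdh5 and Adgrl4 were among the most raised. Plvap rose by 4.65 ± 0.45 on the log2 scale in the parental line (SE; limma, adjusted p = 4.21e-07) and by 4.55 ± 0.25 in the resistant line (3.33e-12). Pecam1 rose by 4.04 ± 0.22 (2.58e-10) and 3.92 ± 0.15 (1.25e-14).

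With quantile normalization, which forces 1 distribution on all libraries, the median of all genes moved to -0.09 and -0.13, the share of all calls that were higher fell from 72.9% to 47.9% and from 70.2% to 38.9%, and 21 and 29 genes of the set were called higher, against 9.61% and 18.5% of all genes tested. Median-of-ratios scaling gave 58.9% in the resistant line. When parental culture 1 or 2 was left out, 22 and 23 genes of the set were called higher in parental tumors, against 6.51% and 8.65% of all genes tested. Tek, Cldn5, Vwf, Nos3 and Lyve1 then passed in neither fit (adjusted p from 0.0733 to 0.299), and S1pr1 did not pass without culture 1 (0.14).

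Cd34 was the only gene of the set called lower in tumors than in cells. In the parental line all 13 tumors lay below both cultures, a log2 difference of -0.80 ± 0.21 (SE; limma, adjusted p = 0.0105). That call was lost without parental culture 1 (-0.87, adjusted p = 0.0792) or 2 (-0.72, 0.151). In the resistant line the difference was -0.76 ± 0.28 (adjusted p = 0.0275), and without resistant culture 1 it was -0.30 and did not pass (0.101). Tumors of 14 to 26.4 TPM then stood beside cultures of 20.2 to 27.6 TPM.

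**Figure D4:**
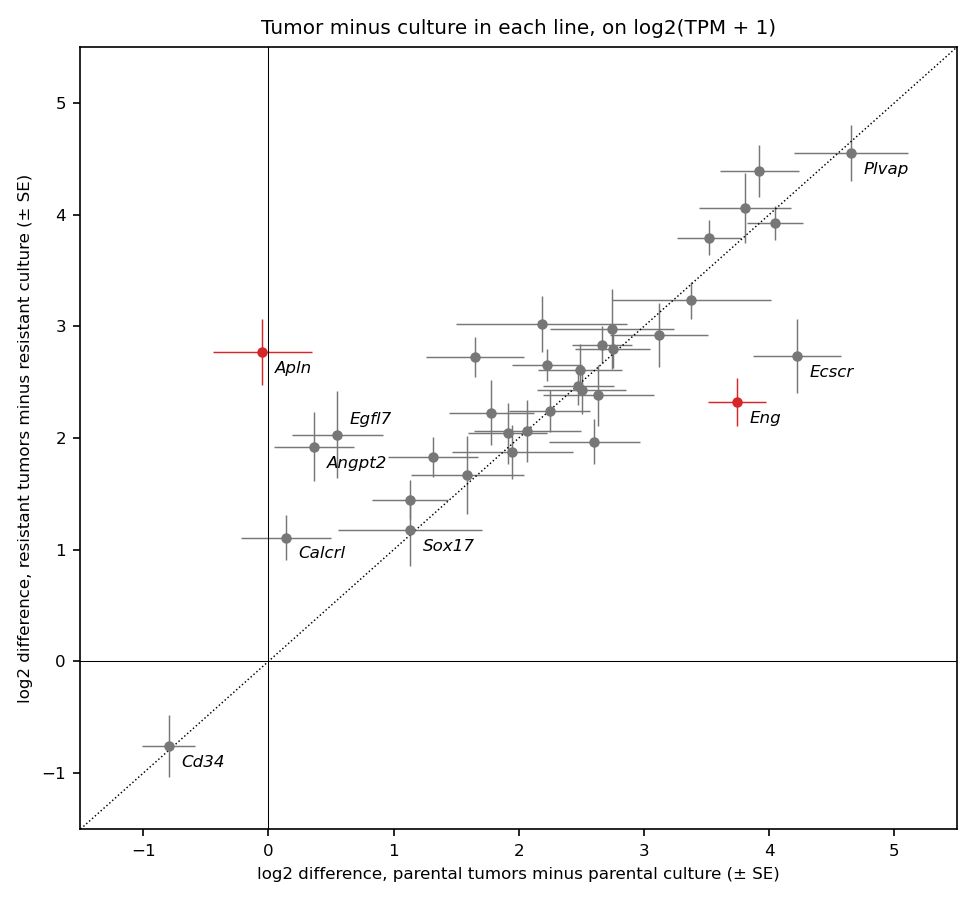
Tumor minus culture difference on the log2(TPM + 1) scale (± SE) in the parental line (horizontal axis) and in the resistant line (vertical axis) for 34 genes; the dotted line marks equal differences. Apln lies above the line and Eng below it (red, the genes whose line difference changed between tumors and culture), Cd34 lies below 0 on both axes, and Egfl7, Angpt2, Calcrl and Ecscr also lie off the line without passing that test.

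Whether the difference between the lines depends on the setting was tested in a fit of all 32 libraries. Of 35 genes tested, Apln had a positive and Eng a negative difference of differences, and 33 did not pass. Among all 15061 genes tested, 2.4% were positive and 1.61% negative. For Apln the line difference was -0.42 in tumors and -3.23 in culture, so the term was 2.82 ± 0.52 (SE; limma, adjusted p = 0.000546). Of 5 resistant cultures, 4 held at most 0.127 TPM of Apln, while resistant tumors held 5.39 to 13.9 TPM. For Eng the line difference was 0.48 in tumors and 1.90 in culture, a term of -1.42 ± 0.34 (adjusted p = 0.00895). For Cd34 it was -2.59 and -2.63, a term of 0.04 with a 95% interval of -0.79 to 0.87 (0.985), and 0.50 ± 0.25 (SE; 0.347) without resistant culture 1.

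Without resistant culture 1 the term was 3.24 for Apln (adjusted p = 5.55e-06) and -1.56 for Eng (0.0035), and Calcrl also passed at 1.22 (0.0419). Eng did not pass without parental culture 1 (-1.18, 0.153), nor Apln without parental culture 2 (2.43, 0.0517). Ecscr passed without resistant culture 2 (-1.77, 0.0456). Angpt2 was at 1.55 (0.0664) with all libraries, and passed without parental tumor 11, resistant tumor 8, or resistant culture 3 or 4 (1.62 to 1.76, adjusted p from 0.0262 to 0.0496). Without resistant culture 1, where Angpt2 was at 0, its term was 1.25 (0.124).

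Other genes of vessels and of their neighbours were read from 9 lists in the tumor comparison, beside the median of 0.04 over all genes tested. Of all 12095 genes tested there, 16.3% were higher and 13.9% lower, the shares to set beside each count below. Of 12 tested VEGF and angiopoietin ligands and co-receptors, 3 rose and 1 fell. Vegfc, the ligand of Flt4, rose by 1.08 (limma, adjusted p = 8.33e-05), Vegfa, the main ligand of Kdr and Flt1, by 0.59 (0.000389) and Angpt1, the activating ligand of Tek, by 0.51 (0.0197), while Angptl4, an angiopoietin-like lipase inhibitor, fell by 0.89 (0.00351). Vegfa averaged 189.5 ± 49.2 TPM in parental tumors, against 279.7 ± 34.7 TPM in resistant tumors (SD). Vegfc in culture was at 5.06 to 6.31 TPM in parental and 33.4 to 57.6 TPM in resistant cells. The list's median difference was 0.06.

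Of 10 arterial, Notch and venous genes, 5 rose and 1 fell, with a median of 0.43, against 16.3% higher and 13.9% lower over all genes tested. Nr2f2, the venous factor, rose by 1.36 (adjusted p = 3.64e-05), Unc5b by 1.03 (4.12e-05), Notch1 by 1.13 (0.000127) and Hey1 by 1.30 (0.00179), with Gja4, a connexin of arterial endothelium, up by 0.63 (0.0065). Notch4, the endothelial Notch receptor, fell by 0.71 (0.0218). Cells without vessels also held Nr2f2, at 44.8 to 78.8 TPM, and Unc5b, at 36.9 to 103 TPM, over the 7 cultures. Notch1 was at 12.1 to 16.5 TPM in parental and 6.2 to 15.7 TPM in resistant cultures. Unc5b was also higher in resistant than in parental cultures (0.95; limma, adjusted p = 0.0207). Nr2f2 (0.50, 0.0578), Notch1 (-0.66, 0.205) and Hey1 (0.36, 0.593) did not pass there. Of 9 leukocyte adhesion and transport genes, 1 rose (Slco2a1, by 0.50; 0.0264) and 2 fell (Cav1, of caveolae, by 1.09, 9.67e-07; Mfsd2a, by 0.50, 0.0118), with a median of 0.13. Cav1 was also lower in resistant than in parental cultures (-1.15, 0.00364). Of 19 further endothelial genes, 4 rose and 2 fell, close to the shares over all genes, with a median of 0.07. Those named by lowest adjusted p were Thbd, thrombomodulin, up by 1.23 (2.89e-06), Icam1 up by 1.45 (6.61e-06), Gata2 up by 0.79 (0.000431) and Stab1 down, at -0.62 (0.0185). Icam1 was higher in resistant cultures too (3.10, 0.0173). Stab1 was higher there as well (1.26, 0.013), opposite to the tumors, while Thbd (0.42, 0.626) and Gata2 (0.88, 0.0973) did not pass. None of 7 lymphatic genes passed, and their median was 0.13. Their sum ran from 31.2 to 214.7 TPM in parental and from 81.8 to 189.9 TPM in resistant tumors. In cultures, which hold no vessels, it was 115 to 165.1 TPM in parental and 175.6 to 202.8 TPM in resistant cells, with Gja1 and Sema3a highest. Ccl21a and Mmrn1 were at 0 in every culture.

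Pericytes wrap the endothelium of small vessels, and their genes were read beside it. Of 13 pericyte and mural genes, 7 rose and 1 fell, with a median of 0.41, against 16.3% higher and 13.9% lower over all genes tested. Rgs5, of pericytes, rose by 2.69 (limma, adjusted p = 3.38e-09), Pdgfrb by 1.79 (1.87e-08), Ndufa4l2 by 1.60 (9.96e-06) and Cspg4 by 1.06 (6.36e-05). The gene that fell was Anpep (by 0.77, 0.00859), named after its value was seen, and Notch3, Cd248, Abcc9, Cox4i2 and Kcnj8 did not pass, with differences from -0.07 to 0.33. Pdgfrb was also higher in resistant than in parental cultures, which hold no pericytes (1.81, 0.00126). Resistant cultures held 16.5 to 27.6 TPM of Pdgfrb. Rgs5 was at 0.0534 TPM in resistant culture 1 and at 5.37 to 14.2 TPM in the other 4, against 0.0957 and 0.0657 TPM in parental cultures. Its difference between the cultured lines was 2.59 and did not pass (limma, adjusted p = 0.081). The summed level of the 14 mural genes ran from 208 to 430.3 TPM in parental and from 432 to 628 TPM in resistant tumors. The same sum was 72.6 to 135.4 TPM in parental and 104.5 to 314.8 TPM in resistant cultures. Leukocyte genes fell in 4 of 6 (Tyrobp by 1.10, 1.64e-06; Laptm5 by 0.73, 0.000981; Itgb2 by 0.48, 0.0029; Coro1a by 0.67, 0.00388), with summed levels of 226 to 718 TPM in parental and 244 to 454 TPM in resistant tumors. Cultures, which hold no leukocytes, also held Laptm5, at 2.21 to 4.67 TPM in parental and 15.9 to 128 TPM in resistant cells. Laptm5 was higher in resistant than in parental cultures by 3.94 (limma, adjusted p = 0.00606). The leukocyte sum was 2.71 to 7.57 TPM in parental and 34.9 to 135 TPM in resistant cultures. The part of MC38 cells in the tumor sums was not tested. Of 6 macrophage genes, Adgre1 fell by 1.19 (1.64e-05), C1qa by 1.14 (1.04e-05) and Csf1r by 0.79 (0.00118), while Cd163 rose by 1.07 (0.00264). The macrophage sums ran from 137 to 406 TPM in parental and from 103 to 184 TPM in resistant tumors. Only 3 of 7 platelet genes could be tested, of which Pf4 fell by 1.48 (2.25e-06) and Itga2b by 0.67 (0.0382). The untested Gp9, Ppbp, Treml1 and Gp6 averaged at most 0.430 TPM in tumors of either line, against 59.9 TPM of Pf4 in parental tumors. Whether Pf4 stems from platelets was not tested. Medians were -0.58 for leukocyte genes, -0.60 for macrophage genes and -0.67 for the 3 tested platelet genes. Fli1, S1pr1, Pecam1 and Lyve1 are also used by these cells, and the part of leukocytes in their levels was not tested; with Ptprc, the pan-leukocyte phosphatase, as a covariate the difference of Fli1 was 0.32 in place of -0.06.

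Across tumors of a line, Cdh5 was set against 9 measures in each line, 18 relations in all, with permutation p-values of 100000 resamples adjusted over the 18. In resistant tumors (n = 12) it went with Pecam1 (r = 0.717, adjusted permutation p = 0.0425; rho = 0.755, 0.0302) and Flt4 (r = 0.704, 0.0425; rho = 0.748, 0.0302). Without the 2 tumors farthest from the median of Cdh5, r was 0.652 and 0.627 (adjusted permutation p = 0.158 for both), so neither call held with fewer tumors. Kdr (r = 0.608) and Plvap (r = 0.623) did not pass there (adjusted permutation p = 0.0997 for both).

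In parental tumors (n = 13), Cdh5 went with Kdr (r = 0.763, adjusted permutation p = 0.0235; rho = 0.780, 0.0302), a call that did not hold without the 2 farthest tumors (r = 0.635, adjusted permutation p = 0.158). Vegfa, at r = -0.481 (0.188) over all 13, was at -0.886 (0.0254) without the 2 farthest. Within the 9 tumors of lower GC index it was at -0.052 (adjusted exact permutation p = 0.941), and at -0.851 when the 2 of these farthest from their median were left out. The 13 tumors fell apart by GC index, however, and the relation with Rgs5 is not given pooled because the 4 high-GC tumors, at 4.01 to 6.20 TPM of Rgs5, formed a cluster of their own below the other 9, at 10.9 to 26.1 TPM. Within those 9 the correlations were 0.622 for Kdr (adjusted exact permutation p = 0.167), 0.543 for Rgs5 (0.24), 0.648 for Pecam1 (0.167) and -0.028 for Ptprc (0.941). Plvap, at r = -0.426 over all 13, was at 0.872 within the 9 (adjusted exact permutation p = 0.0101; rho = 0.800, 0.111), so its sign turned on the 4 tumors. The GC index itself went from r = -0.509 over 13 tumors to 0.877 within the 9 (adjusted exact permutation p = 0.0101; rho = 0.733, 0.111).

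**Figure D5:**
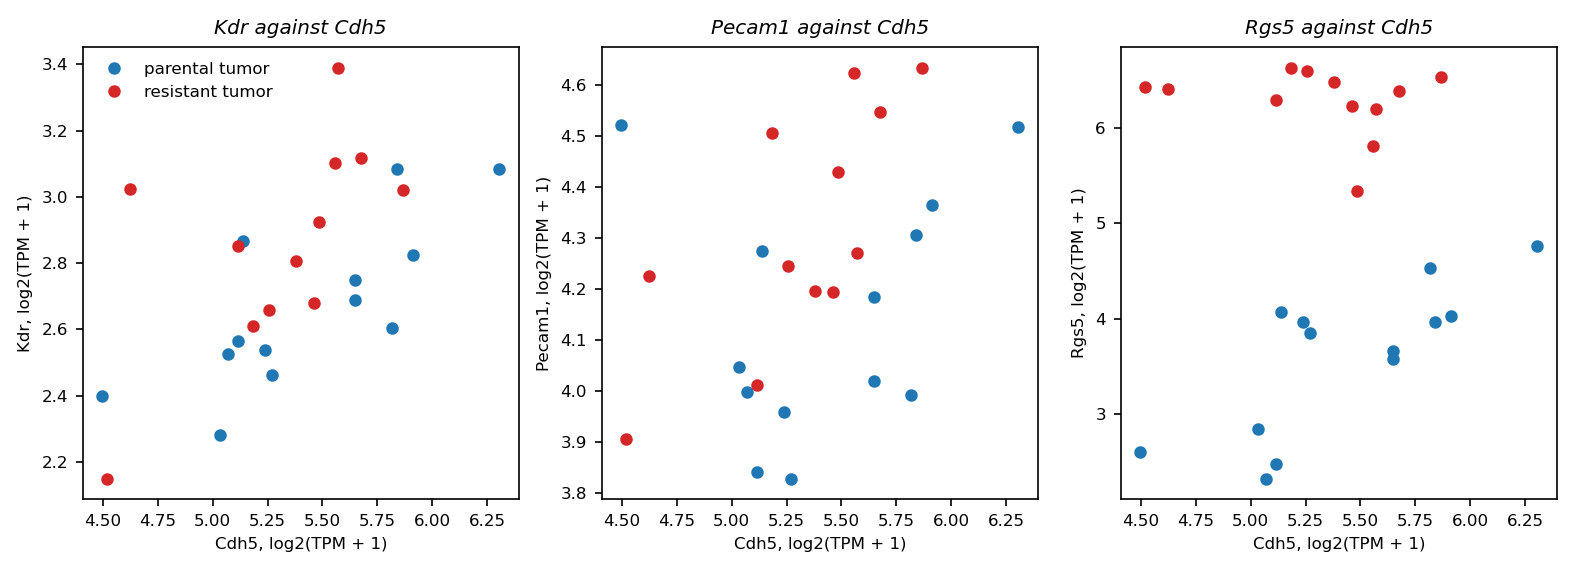
Level of Kdr, Pecam1 and Rgs5 against Cdh5, each as log2(TPM + 1), in 13 parental (blue) and 12 resistant (red) tumors. Points climb with Cdh5 for Kdr in parental and for Pecam1 in resistant tumors, and for Rgs5 the lines form separate bands, with the 4 parental tumors of high GC index at the bottom left.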

How the data were processed

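RNA was extracted with a Qiagen kit with DNase treatment and made into libraries with the KAPA RNA HyperPrep kit, per the labels' protocols. The submitters' processing notes name the aligner STAR and the build GRCh38, a human build, although the symbols in the table are those of mouse genes; the quantifier and annotation are not given in the sources used here. The authors deposited TPM values, 1 table for all 32 libraries, which sum to 1000000 per library, so they keep no sequencing depth, which is unknown, and counting intervals are not given. Foxc2 from the lists was not analysed here, and Figf is the older symbol of Vegfd, which was.

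Values were tested as log2(TPM + 1) with limma 3.58.1 in R 4.3.3 (empirical Bayes with trend). A gene entered a comparison with at least 1 TPM in as many libraries as the smallest group has. P-values are two-sided and adjusted by Benjamini-Hochberg over all genes tested, with a threshold of 0.05. Every gene of the set is named; of each of the 9 other lists (104 genes in the table), up to 4 called genes of lowest adjusted p are named, and Gja4, Notch4, Anpep and the mural genes that did not pass were named after their values were seen. The members and lists were chosen with earlier results of these data known. Correlations across tumors used two-sided permutation tests (100000 resamples, smallest p 1e-05) or, within 9 tumors, exact permutation tests, which were added after seeing the data, as were culture levels without resistant culture 1. The GC index used 2146 genes of GC content above 0.55 and 1274 below 0.42, with at least 5 TPM on average in tumors and GENCODE M21 sequences (98.6% of 10046 genes matched). No 2 libraries were identical, and the highest correlation within a group was 0.993. Group membership came from the labels, and the fits were tested on simulated data. Alternatives were other scalings, pseudocounts and filters, array weights, a rank-sum test, covariates and leaving out libraries.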

Additional observations from a re-analysis of the deposited data

Results flagged for a closer look

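Resistant culture 1 lay far from the other 4 resistant cultures for 4 of 10 vessel genes checked, a gap of more than 0.710 of the group's range: Cd34 at 118.1 TPM, Cdh5 at 7.184 TPM, Apln at 3.578 TPM and Calcrl at 1.38 TPM. Chance gives such a gap in about 1 in 20 groups, and the genes share the library. Its overall profile correlated with the other resistant cultures at a median of 0.984, against 0.991 to 0.992 for those. The cause was not tested.

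The difference between the lines itself differed between tumors and culture for 2 genes in a fit of all libraries. For Eng the term was -1.42 and for Apln 2.82 on the log2 scale (limma, adjusted p = 0.00895 and 0.000546). Both terms rest on 2 parental cultures, and each was lost on leaving out a particular parental culture.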

How the results depend on the processing

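In the tumor comparison Cd34 was lower and Eng higher under all 13 alternatives, and S1pr1 was higher in 11. Counts over all genes moved with the setting too. Of 12095 genes tested, 1969 were higher and 1678 lower in the main fit, and 2278 and 1958 with array weights. They were 2171 and 1811 with the GC index, 3052 and 2320 with Ptprc and 2158 and 1697 with Cdh5 as covariate. The rank-sum test gave 1949 higher, and 1626 of 12175 were lower without the high-GC parental tumors. Members called higher and lower were 5 and 2 with array weights, 4 and 3 after adjusting for the GC index, 5 and 2 with Ptprc and 4 higher with Cdh5 as covariate. There were 4 higher by the rank-sum test, 3 lower without parental tumors of GC index above 0.5, and 0 higher at a change of at least 2-fold, where the 2 higher genes with all changes counted were Eng and S1pr1. With 1 tumor left out, 1721 to 2116 of all genes tested were higher, and 2 to 4 members were. In culture, no filter gave 0 higher and 1 lower, and leaving out 1 library gave 0 to 1 higher and 0 to 3 lower. Parental tumors against culture gave 0 to 1 lower on leaving out 1 library, and resistant tumors against culture 0 lower with no filter or array weights and 0 to 1 on leaving out 1 library. The difference of differences gave 4 positive and 2 negative with a pseudocount of 0.1, 3 and 2 with array weights, and 0 to 2 of each on leaving out 1 library. Of all 15061 genes tested for that term, 428 were positive and 360 negative with a pseudocount of 0.1, and 835 and 560 with array weights. With no filter, 533 of 16130 genes were higher and 897 lower between the cultured lines. At 0.5 TPM, 5 members were expressed in resistant culture.

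Signs turned only for genes that did not pass with all tumors. They turned with quantile normalization (Erg 0.0022, Adgrl4 -0.0285), median-of-ratios scaling (Adgrl4 -0.02), array weights (Egfl7 0.0555, Robo4 0.0335, Erg 0.0999, Sox18 0.0292, Vwf 0.209, Plvap 0.1474) and the Cdh5 covariate (Erg 0.0251, Fli1 0.0642). With the GC index as covariate they did so for Tie1 0.2233, Egfl7 0.2813, Esam 0.1333, Robo4 0.2217, Erg 0.4141, Sox18 0.3627, Vwf 0.2366, Plvap 0.5505 (adjusted p = 0.000631), Ecscr 0.0687 and Ptprb -0.0312. With Ptprc they did so for Cldn5 -0.0804, Fli1 0.3233, Adgrl4 -0.0259, Mmrn2 -0.0388 and Nos3 -0.0159. Without the high-GC parental tumors the values were Tie1 0.0664, Egfl7 0.1808, Robo4 0.0841, Erg 0.1512, Sox18 0.1767, Vwf 0.1441 and Plvap 0.3038. In the correlations with Cdh5 without those tumors, r was 0.872 for Plvap, 0.298 for Flt4, -0.028 for Ptprc and 0.877 for the GC index, and without the 2 farthest tumors it was 0.183 for Flt4 in parental and 0.218 for Ptprc in resistant tumors. On leaving out 1 tumor the ranges were -0.1005 to 0.042 for Tie1, -0.1125 to 0.0753 for Egfl7, -0.0527 to 0.1654 for Cldn5, -0.1268 to 0.0341 for Robo4, -0.0977 to 0.1266 for Erg, -0.2451 to 0.018 for Fli1, -0.1437 to 0.0286 for Vwf, -0.1336 to 0.093 for Plvap, -0.0662 to 0.0923 for Adgrl4 and -0.0029 to 0.1269 for Mmrn2. The cause of these shifts was not tested.

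No paired analysis was possible because nothing in the labels ties tumors or cultures of the lines to each other. Replicate numbers only follow the order of deposition. The TPM table gives no depth, 2 parental cultures limit every result that uses them, and genes near 1 TPM, such as Tek, Sox17, Clec14a and Prox1, are read least firmly.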
